A study of Homo sapiens with 8 samples.

Results

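To follow chromatin accessibility around tight junction genes during exposure of mammary epithelial cells to TGFβ1, the following 9 genes were examined: CLDN1, CLDN4, CLDN7, OCLN, TJP1, F11R, CGN, MARVELD2 and PARD3. ATAC-seq, which reads out open DNA by the insertions of a transposase, had been performed on MCF10A cells, an immortalized, non-tumorigenic human mammary epithelial cell line, with the unedited (WT) genotype in all groups. Cells received solvent (BSA in PBS, given as time 0 in the labels) or TGFβ1 at 5 ng/ml for 6, 24 or 72 h, with 2 libraries per condition and 8 in all. The authors called peaks once per condition from both libraries together, so that each condition is represented by 1 list of peaks and no spread between replicates could be calculated: all values below are differences between 4 pooled lists, without a test. Peaks that shared at least 1 base across the 4 lists were joined into 126658 regions, of which 195 overlapped the annotated body of 1 of the 9 genes extended by 50 kb on either side (GRCh38, GENCODE release 44). Of these regions, 68 lay within 3 kb of a transcription start site (TSS) and are called proximal, and 127 lay farther from every TSS and are called distal. OCLN and MARVELD2, which are neighbours on chromosome 5, shared 2 of the regions, so that the windows add up to 197.

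Tight junctions seal the space between neighbouring epithelial cells at the apical end of their lateral membranes. Claudins form the strands that open or close the seal for ions, occludin and tricellulin (the product of MARVELD2) are membrane proteins within these strands, and junctional adhesion molecule A (F11R) is an immunoglobulin-like adhesion receptor beside them. On the cytoplasmic side, the scaffold ZO-1 (TJP1) and cingulin (CGN) connect the strands to actin, and the polarity protein PAR3 (PARD3) positions the junction. In mammary epithelium, TGFβ can induce an epithelial-mesenchymal transition, in which cells give up junctions and acquire motility.

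Strength is given as the AUC, the area under the significance curve that the peak caller Genrich reports for each peak, summed per region and list. The value is not corrected for depth, and it grows with both the height and the width of a peak. To compare lists, the log2 ratio of the AUC to solvent was reduced by its median over all proximal regions with a peak in both lists, which was 0.44, 0.38 and 0.25 for the 6, 24 and 72 h lists, and the result is called the scaled log2 ratio. A region was called higher or lower when its scaled ratio reached 1.5-fold, gained when the TGFβ1 list had a peak and the solvent list none, and lost in the reverse case. The own-promoter region of a gene is the region within 3 kb of any of its TSSs with the largest AUC in solvent. Since ATAC-seq was performed on bulk cells, fewer cells with an open region and less opening per cell cannot be told apart.

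Sequences are shown first for CLDN7 and OCLN, whose promoters differed most from solvent. RefSeq promoters (GRCh38.p14, 250 bases before to 50 after the start) were matched for 7 of the 9 genes, those of F11R and PARD3 excepted, and were searched on both strands for the E-box CACCTG, which reads CAGGTG where it lies on the other strand, a sequence bound by the SNAIL and ZEB repressors. The CLDN7 promoter on chromosome 17 contained 5 such E-boxes and that of OCLN on chromosome 5 contained 2. None of the other 5 matched promoters contained one. Around the summits of the own-promoter regions, E-boxes also occurred at F11R (2) and CLDN4 (1), as given below. Of 34961 RefSeq promoters, 20.6% contained at least 1 E-box, 3.50% at least 2 and 0.0944% at least 5. Each site is shown on the strand of the gene, with the E-box in capitals and 12 bases on either side. The number after the gene is the position of the first capital base relative to the TSS, counted from 1 downstream and from -1 upstream, and sites less than 12 bases apart appear in each other's flanks.

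CLDN7 -174: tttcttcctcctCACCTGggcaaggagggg
CLDN7 -135: cgacttccggttCAGGTGagtgtcccttcg
CLDN7 -20: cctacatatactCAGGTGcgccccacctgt
CLDN7 -9: tcaggtgcgcccCACCTGtccgcccgcacc
CLDN7 6: cctgtccgcccgCACCTGctggctcacctc
OCLN -133: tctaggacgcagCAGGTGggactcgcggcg
OCLN 36: tcggtgcggcgtCAGGTGcgcccgccaggt

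The CLDN7 sites lie between chr17:7262456 and chr17:7262664 and the OCLN sites between chr5:69492645 and chr5:69492842. All 7 were inside a peak in each of the 4 lists. The letters describe the sequence, and occupancy was not measured. The other motifs searched, AP-1 (TGACTCA), a GRHL site (AACCGGTT), a SMAD palindrome (GTCTAGAC) and TEAD (GGAATG), were absent from the promoters of CLDN7 and OCLN, and AP-1 occurred once among the 7 promoters, in that of CLDN4.

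Among the own-promoter regions, those of OCLN and the 3 claudins had the lowest ratios to solvent, and those of the scaffold CGN and the polarity gene PARD3 the highest. The region at CLDN7 had an AUC of 1879 in solvent, of 1904 after 6 h of TGFβ1, of 1001 after 24 h and of 547 after 72 h. Those of OCLN, CLDN1, CLDN4 and MARVELD2 were also lower at 72 h than in solvent before any scaling, whereas those of TJP1, F11R, CGN and PARD3 had a larger unscaled AUC in all TGFβ1 lists. In scaled log2 ratios the median of the 9 was -0.16, -0.19 and -0.31 at 6, 24 and 72 h, beside -0.06, -0.08 and -0.08 for all protein-coding genes with an own-promoter region in both lists (15062, 15035 and 14995 genes). At 72 h all 9 were below 0, as were 69.3% of all protein-coding genes, and without scaling 5 of the 9 were below 0 and 4 above. Lower by 1.5-fold or more were 0, 1 and 2 of the 9 at 6, 24 and 72 h, against 0.372%, 0.971% and 1.35% of all protein-coding genes, and higher were none, against 2.19%, 3.67% and 3.47%. The 2 genes lower at 72 h were CLDN7 and OCLN.

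**Figure D1:**
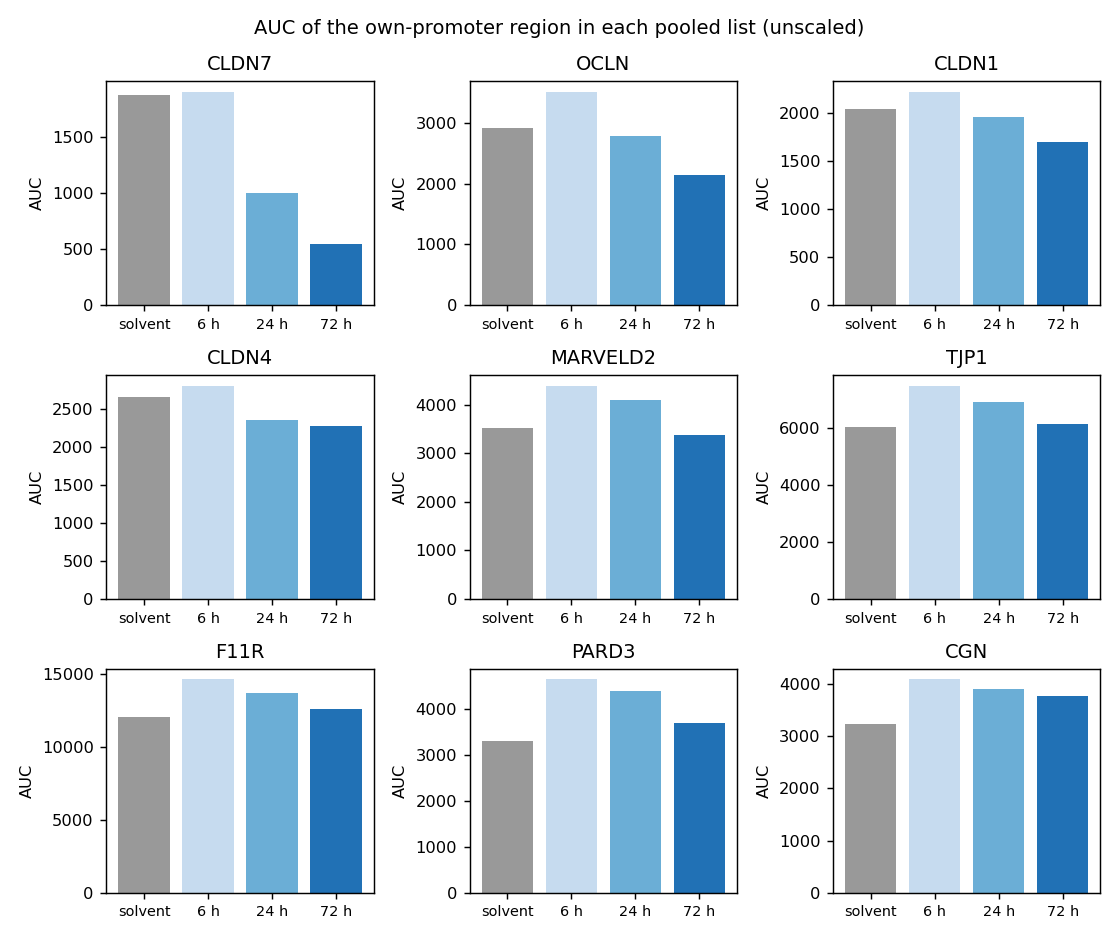
AUC of the own-promoter region (y axis, unscaled, each panel with its own scale from 0) in the solvent, 6 h, 24 h and 72 h lists for each of the 9 genes; each bar is 1 pooled list, without error. The bars of CLDN7 go from 1879 to 547, and those of OCLN, CLDN1, CLDN4 and MARVELD2 end below solvent, while those of TJP1, F11R, CGN and PARD3 do not.

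CLDN7 encodes a claudin found along the lateral membrane of many epithelia. Its own-promoter region, chr17:7262264-7263616, spans the canonical TSS. The scaled log2 ratios were -0.42, -1.29 and -2.03 at the 3 times, which corresponds to 0.245 of the solvent value at 72 h. Of 14995 protein-coding genes, 7 had a ratio as low or lower at 72 h, CLDN7 included. Without scaling the 72 h value was -1.78. The width covered by peaks went down together with the AUC, with 1252 bp in the solvent list and 1161, 884 and 537 bp in the TGFβ1 lists. In solvent a single peak reached from position -1138 to position 113 relative to the TSS. At 24 h there were 2 peaks, with AUCs of 628 over the TSS and 373 farther upstream, and at 72 h only the former remained in the list, from -450 to 86. Divided by covered bases, the AUC was 1.501 in solvent and 1.02 at 72 h, and the log2 ratio of that quantity, scaled in the same way, was -0.74.

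Next to this region, an intron of CLDN7 took another course. The region chr17:7260695-7262036, with its summit 1325 bp downstream of the TSS, had AUCs of 1769.6, 2645, 2154 and 1814 in solvent and at 6, 24 and 72 h, and a scaled log2 ratio of -0.21 at 72 h. Another region, at chr17:7259139-7259639 past the end of CLDN7 in the neighbouring gene ELP5, had AUCs of 1401, 1499, 1576 and 1218 and a ratio of -0.45. Of these 3 regions the one over the TSS was the only one past 1.5-fold.

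OCLN encodes occludin. Its own-promoter region, chr5:69492234-69494068, had AUCs of 2916, 3513, 2776 and 2135, and scaled log2 ratios of -0.17, -0.45 and -0.70, or 0.617 of the solvent value at 72 h. It consisted of a strong peak over the TSS, with AUCs of 2421 in solvent and 1857 at 72 h, and of a weak one downstream of it, with 495 and 277. Per covered base the scaled 72 h ratio was -0.40, and without scaling the AUC ratio was -0.45; neither reaches 1.5-fold. Inside the gene, the regions followed different courses. An intronic region within 3 kb of an alternative TSS, chr5:69502554-69503448, had AUCs of 931, 1464, 1627 and 1681 and was higher at 72 h, at 0.60. The region chr5:69517678-69518116, in an intron 25114 bp downstream of the TSS, had AUCs of 1559.7, 1815, 1438 and 1265 and scaled log2 ratios of -0.22, -0.50 and -0.55, the lowest 72 h value among all distal regions of the 9 genes. The intronic region chr5:69512710-69513253, between these, had AUCs of 582, 1396, 1356 and 1173 and a ratio of 0.76 at 72 h.

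CLDN1 encodes a claudin that tightens the barrier. Its own-promoter region, chr3:190321910-190322636, had AUCs of 2037, 2219, 1955 and 1696, with scaled log2 ratios of -0.32, -0.44 and -0.51. The peak kept its width, with 705 bp covered in solvent and 682 bp at 72 h. Of all protein-coding genes, 1.91% had a lower ratio at 72 h. An intronic region 2638 bp downstream of the TSS had AUCs of 1124, 1470.0, 1157 and 1184 and a ratio of -0.17 at 72 h. Farther from the promoter, in the gene body and its flanks, the median of the 10 distal regions with a peak in both lists was 0.30 at 72 h, and the largest value of the window, 0.89, belonged to chr3:190303915-190304430, downstream of the gene, with AUCs of 713, 1203, 1567 and 1564.

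CLDN4 encodes a claudin that is widespread in simple epithelia. At its canonical TSS no peak was listed in solvent, at 6 h or at 72 h, and at 24 h a weak one with an AUC of 411. Its own-promoter region was therefore chr7:73827556-73828549, whose summit lies at position -2690 relative to that TSS in an intron of a longer transcript. The AUCs were 2658, 2808, 2352 and 2273, and the scaled log2 ratios -0.36, -0.56 and -0.47. The 2 peaks in this region differed: the upstream one went from an AUC of 1746 in solvent to 1067 at 72 h, and the downstream one from 912 to 1207. The largest distal region within the gene body, chr7:73822213-73823382, had AUCs of 3497, 5316, 5598 and 4979 and a 72 h ratio of 0.26. The median over the 6 distal regions in both lists was -0.05.

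MARVELD2 encodes tricellulin, which sits where 3 cells meet. The own-promoter region, chr5:69414827-69415900, had AUCs of 3523, 4396, 4092 and 3382, and its scaled log2 ratios were -0.12, -0.16 and -0.31. Its window contained 4 regions, all with a peak in every list, including the OCLN promoter, which held the largest decrease of this window. The only distal one, chr5:69449996-69450819, had AUCs of 1177, 1979, 1905 and 1899 and a ratio of 0.44 at 72 h.

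F11R had the strongest own-promoter region of the 9 in solvent per covered base. The region chr1:161019860-161022843 had AUCs of 12024, 14638, 13718 and 12605 and scaled log2 ratios of -0.16, -0.19 and -0.18. Per covered base, the solvent AUC was 4.38 for F11R, 3.53 for TJP1, 3.30 for MARVELD2, 3.26 for CLDN4, 2.89 for CLDN1, 2.86 for CGN, 1.84 for OCLN, 1.57 for PARD3 and 1.501 for CLDN7, with a median of 2.69 over all protein-coding genes. Neighbours in this order could not be separated in the absence of a replicate spread. CLDN7 and OCLN were among the 3 lowest. A weak region in an F11R intron, chr1:161017808-161018120, had AUCs of 215, 282 and 370.4 in solvent and at 6 and 24 h, close to the minimum of 200 for a peak, and no peak was listed at 72 h. The distal regions of F11R ranged from -0.40 to 0.71 at 72 h.

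TJP1 and CGN encode the scaffold proteins ZO-1 and cingulin. The own-promoter region of TJP1, chr15:29821412-29823149, had AUCs of 6027, 7488, 6921 and 6121 and scaled log2 ratios of -0.13, -0.18 and -0.22. That of CGN, chr1:151510987-151512244, had AUCs of 3233, 4087, 3900.5 and 3764 and ratios of -0.10, -0.11 and -0.03. Both promoters kept their width, with 1709 and 1717 bp covered at TJP1 and 1131 and 1170 bp at CGN in solvent and at 72 h. An intronic region of TJP1 near an alternative TSS, chr15:29734991-29735610, had AUCs of 775, 1431, 1523 and 1784 and was higher at 72 h, at 0.96. In the CGN window the largest increase, 1.14, and the largest decrease, -0.19, both lay near the TSS of its neighbour TUFT1, at chr1:151542612-151543192 and chr1:151539299-151541392.

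PARD3, the largest of the 9 genes with 705.8 kb, encodes PAR3. Its own-promoter region, chr10:34813870-34816028, had AUCs of 3304, 4655, 4391 and 3706. The scaled log2 ratios were 0.05, 0.03 and -0.08, and 49.2% of all protein-coding genes had a lower value at 72 h. PARD3 was thus the only member above 0 at 6 h and 24 h.

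**Figure D2:**
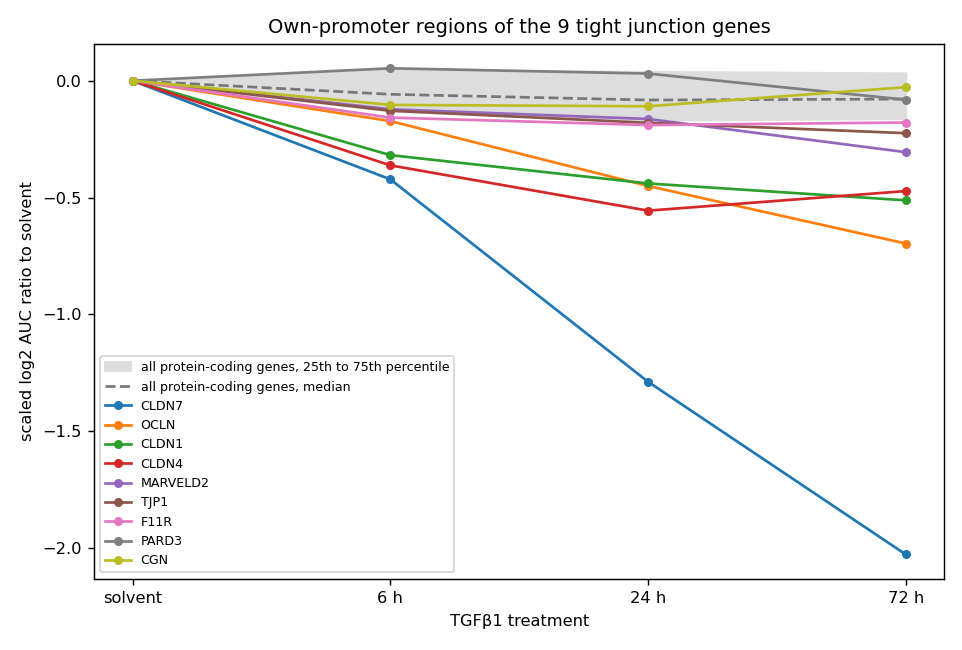
Scaled log2 ratio of the AUC to solvent (y axis) of the own-promoter region of each of the 9 genes in solvent and after 6, 24 and 72 h of TGFβ1 (x axis, not to scale in time); the dashed line and grey band show the median and the 25th to 75th percentile of all protein-coding genes. CLDN7 ends at -2.03, OCLN at -0.70, CLDN1 at -0.51 and CLDN4 at -0.47, and the other 5 genes end between -0.31 and -0.03.

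With this scaling, which centres proximal regions on 0, the distal medians were above 0. The distal regions of the 9 genes had median scaled log2 ratios of 0.11, 0.25 and 0.31 at 6, 24 and 72 h (89, 87 and 88 regions). Those of all distal regions of the genome were 0.12, 0.23 and 0.27. Without scaling, the distal and the own-promoter medians were both above 0 at 6 and 24 h. At 6 h 8 of 89 distal regions were higher by 1.5-fold or more, or 8.99%, against 14.5% of all distal regions. At 24 h 21 of 87 were higher, or 24.1% against 25.5%, and at 72 h 25 of 88, or 28.4% against 29.3%. Lower were 1, 0 and 0 regions, against 1.55%, 3.46% and 4% of all distal regions. These shares were near the background at 24 and 72 h, so that the count is no result about tight junction genes. With the AUC divided by covered bases 6 regions (6.82%) were higher at 72 h, against 14.9% of all distal regions. With scaling among regions of similar AUC 12 (13.6%) were higher and 6 (6.82%) lower, against 18.6% and 8.34%. Of the 25 regions higher at 72 h, 13 were in the window of PARD3 and 7 in that of TJP1. These windows, of 805.8 and 369.5 kb, were the longest and held 37 and 19 of the 88 distal regions compared.

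**Figure D3:**
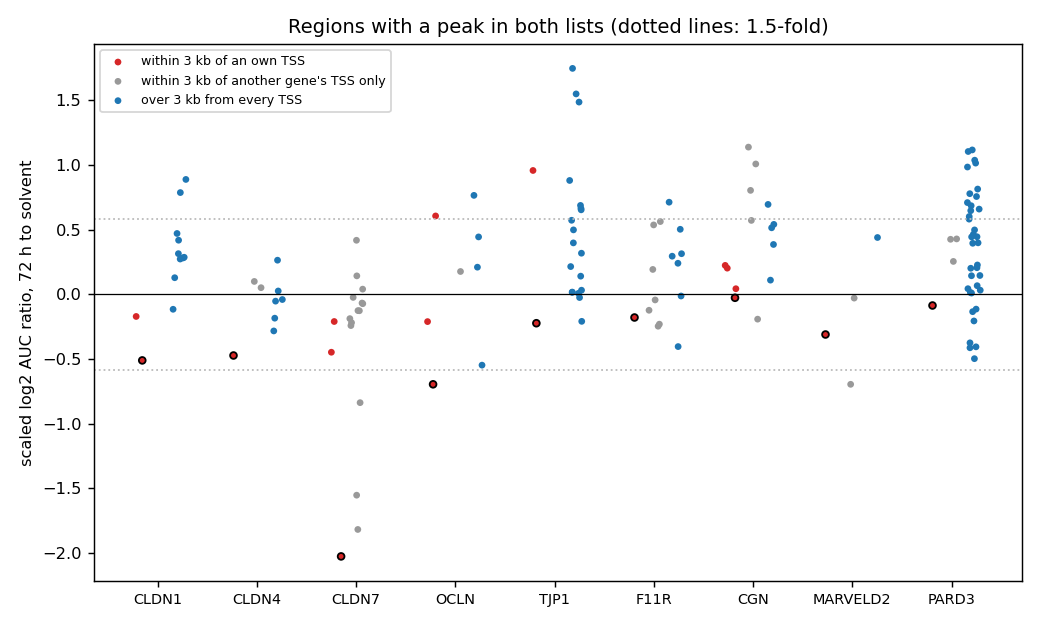
Scaled log2 ratio at 72 h (y axis) of each region with a peak in both the solvent and the 72 h list, by gene window (x axis); red points are within 3 kb of a TSS of the gene itself (own-promoter regions outlined in black), grey points within 3 kb of another gene's TSS only, and blue points are distal. All 9 outlined points lie below 0, and the 3 highest points, between 1.49 and 1.75, are distal regions of TJP1.

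The sequence around the summit of the strongest peak is shown for 5 distal regions: the largest and the third largest increase (both TJP1), the strongest gained region (TJP1), the largest increase at PARD3, and the largest decrease (OCLN). Each run is the plus strand of GRCh38 at the summit base and 100 bases on either side, without an annotated exon, and motif letters found on either strand are in capitals.

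TJP1 chr15:29946237-29946437: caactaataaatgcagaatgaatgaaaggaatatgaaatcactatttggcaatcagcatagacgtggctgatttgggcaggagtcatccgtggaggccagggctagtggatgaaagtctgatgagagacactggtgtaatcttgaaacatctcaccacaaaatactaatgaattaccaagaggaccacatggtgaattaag
TJP1 chr15:29698395-29698595: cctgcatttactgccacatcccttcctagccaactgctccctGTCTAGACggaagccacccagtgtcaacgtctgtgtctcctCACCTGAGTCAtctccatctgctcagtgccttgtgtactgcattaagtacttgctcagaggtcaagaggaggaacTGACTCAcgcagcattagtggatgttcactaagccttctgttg
TJP1 chr15:29860091-29860291: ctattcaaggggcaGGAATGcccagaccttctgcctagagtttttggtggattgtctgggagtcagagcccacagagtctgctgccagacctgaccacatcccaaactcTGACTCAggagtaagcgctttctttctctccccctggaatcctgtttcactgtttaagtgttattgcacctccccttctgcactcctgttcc
PARD3 chr10:34514397-34514597: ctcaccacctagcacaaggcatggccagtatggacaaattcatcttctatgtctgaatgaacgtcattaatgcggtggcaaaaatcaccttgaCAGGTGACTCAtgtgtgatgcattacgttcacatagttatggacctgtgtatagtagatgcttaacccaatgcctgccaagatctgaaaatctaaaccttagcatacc
OCLN chr5:69517804-69518004: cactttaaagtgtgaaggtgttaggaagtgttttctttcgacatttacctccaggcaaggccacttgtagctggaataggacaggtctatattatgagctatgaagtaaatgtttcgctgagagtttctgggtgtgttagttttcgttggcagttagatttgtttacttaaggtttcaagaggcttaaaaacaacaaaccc

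The first of these regions, chr15:29946092-29946625, is in an intron of TJP1 with its summit at position -123869 relative to the canonical TSS. It had AUCs of 453, 1466, 1940.1 and 1804 in the 4 lists and scaled log2 ratios of 1.25, 1.72 and 1.75. None of the 5 motifs occurred in the bases shown. The next region shown, chr15:29698103-29698811, lies just past the end of TJP1 and had AUCs of 716, 2002, 2715 and 2377, with ratios of 1.04, 1.54 and 1.49. It contained 2 AP-1 sequences, the SMAD palindrome and an E-box that overlaps one of the AP-1 sequences. Both regions were already past 1.5-fold at 6 h, at a time when the TJP1 promoter was at -0.13.

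In PARD3 the 5 named increases were all intronic. The region chr10:34514346-34514596 had AUCs of 305, 741, 706 and 785 and a 72 h ratio of 1.12. Its AP-1 sequence also overlaps an E-box. At chr10:34758307-34759013 the AUCs were 949, 2101, 2449 and 2309, with a ratio of 1.04, and at chr10:34526253-34527391 they were 1354, 2402, 2795 and 3244, with 1.01. The region chr10:34494019-34494393 reached 1.10. By contrast, chr10:34804279-34804647 was below solvent at 6 and 24 h, with -0.60 and -0.53, and at 0.98 only at 72 h, from AUCs of 253, 226, 227 and 592.

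None of the 8 largest distal decreases reached 1.5-fold. After the OCLN intron they comprised 4 PARD3 introns, from -0.50 to -0.38, the flank of F11R at -0.40, a CLDN4 intron at -0.28 and a TJP1 intron at -0.21.

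Across the 9 windows, 36 of 178 regions were gained at 6 h (20.2%), 41 of 183 at 24 h (22.4%) and 37 of 179 at 72 h (20.7%). Over all regions the shares were 22.9%, 29.8% and 29.3%. Lost were 1, 4 and 3 regions, or 0.562%, 2.19% and 1.68%, against 0.551%, 1.31% and 2.43%. The Wilson 95% interval of the gained share at 72 h, 15.4% to 27.2%, covers counting error only. The TGFβ1 lists are longer than the solvent list, and when all lists were shortened to the same number of peaks, 16 regions were gained (10.1%) and 12 lost (7.59%) at 72 h, against 13.8% and 11.6% of all regions. Of the 195 regions, 137 (70.3%) had a peak in all 4 lists, against 62.6% of all regions, and 23 (11.8%) only in the 3 TGFβ1 lists, against 14.3%.

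Over all regions, 29.3% were gained at 72 h. Of the 33 regions in the long TJP1 window, 12 were gained at that time. The strongest, chr15:29860033-29860571, had no peak listed in solvent and AUCs of 317, 921 and 1192 at 6, 24 and 72 h, and an intronic region close by, chr15:29860884-29861158, had 303, 583 and 648. The other 4 named gained regions were at TJP1 or PARD3, among them chr15:29682838-29683127 with 296, 583 and 570.1. At CLDN4, chr7:73849419-73849741 appeared with 378, 598 and 686. Upstream of CLDN7, with its summit at position -9853, chr17:7272237-7272510 appeared with 381, 649.5 and 475; it was the only distal region of that window, and 18 of its 24 regions lay near TSSs of other genes. The 2 distal regions lost at 72 h were weak PARD3 introns, with solvent AUCs of 304 and 292.

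The AUC summed over a window depends on how many peaks were called there and how wide they were. In the TJP1 window, 21 regions had a peak in solvent and 33 at 72 h, and the covered length was 10115 and 16484 bp. The scaled log2 ratio of its summed AUC was 0.62 at 72 h, whereas the mean AUC per covered base was 2.40 in solvent and 2.27 at 72 h after scaling (2.69 without). The summed ratios of PARD3, CGN and CLDN1 were at 0.36, 0.27 and 0.24, and those of CLDN4, F11R and OCLN at 0.06, 0.05 and 0.02. With this scaling the windows of MARVELD2 (-0.21) and CLDN7 (-0.18) were below 0, and both were above 0 without scaling, at 0.04 and 0.07. In the CLDN7 window the covered length was 16314 bp in solvent and 15998 bp at 72 h.

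In the CLDN7 window 3 proximal regions of other genes were lower by 1.5-fold or more at 72 h. They were singled out after their values were seen. Of these, 2 were near the TSS of YBX2, chr17:7294582-7295174 with AUCs of 608, 719, 328 and 204 (-1.82) and chr17:7292819-7293788 (-0.84). The other, chr17:7313318-7313714, had AUCs of 525, 423 and 212 in solvent and at 6 and 72 h, no peak at 24 h, and a 72 h ratio of -1.55. The remaining regions near TSSs of other genes in this window, with a peak in both lists, lay between -0.24 and 0.42. The share of all proximal regions lower by 1.5-fold was not calculated, so that the count is no result about this window. Over all 9 windows, the regions near the TSS of another gene only had a median of -0.02 at 72 h and ranged from -1.82 to 1.14 (33 regions).

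Within the same window around the summit, AP-1 occurred in 55 of 127 distal regions of the 9 genes (43.3%), against 37.5% of all distal regions. Among regions higher at 72 h it occurred in 13 of 25 (52%), against 47.4% of all higher distal regions, and among gained ones in 15 of 29 (51.7%), against 40.8%. Among those within 1.5-fold it occurred in 27 of 63 (42.9%), against 36.3%. Of the 8 largest increases 5 contained AP-1, and of the 8 largest decreases, none of which reached 1.5-fold, 2. Both sets were picked as extremes of the same ratios, and no share was calculated for all lower distal regions. The difference between these counts is therefore no result about AP-1. The E-box occurred in 19 of 127 (15.0%), against 17.7%, and TEAD in 23 (18.1%), against 17.4%. The SMAD palindrome occurred in 2 regions and the GRHL site in none, with shares of 0.326% and 0.0433% over all distal regions. At the summits of the 9 own-promoter regions the E-box occurred in 4 and AP-1 in none. Over own-promoter regions of all protein-coding genes the shares were 16.1% and 9.88%. These 4 regions were those of CLDN7 with 3 E-boxes, OCLN and F11R with 2 each, and CLDN4 with 1. Their 72 h ratios were -2.03, -0.70, -0.18 and -0.47, in that order. The median GC content was 74.1% for the 9 and 66.2% for all.

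For comparison, 37 further genes of the tight junction and its polarity complexes were followed at their own-promoter regions. A region was present for 35 of them, with CLDN3 and CLDN8 as the exceptions, and 34 had a peak in both lists at each time. Their median scaled log2 ratio was -0.07, -0.14 and -0.13, beside -0.06, -0.08 and -0.08 for all protein-coding genes. Lower by 1.5-fold or more were 0, 1 and 0 genes, and higher 2, 3 and 1. Of all protein-coding genes 0.372%, 0.971% and 1.35% were lower, and 2.19%, 3.67% and 3.47% higher. The gene lower at 24 h was MARVELD3, another relative of occludin, with AUCs of 997, 1472, 599 and 813. By the Euclidean distance over the 3 scaled log2 ratios, compared with 42 other genes, the closest pattern to CLDN7 was that of MARVELD3, at a distance of 1.59, and OCLN followed at the same distance to 2 decimals. The other 8 members had a closer partner, between 0.0073 for TJP1 (YBX3) and 0.20 for OCLN (CXADR). CLDN1 was closest to TJAP1 (0.03) and CLDN4 to ILDR1 (0.06).

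In the whole series, the lists held 86209 to 118433 peaks covering 44.8 to 60.4 Mb. The labelled epithelial identity was compared with markers: all 10 genes of mammary basal epithelium, such as KRT5 and CDH1, had a region within 3 kb of a TSS in solvent, with AUCs of 306 to 8598. The same was true of the blood genes PTPRC and LCP2, of 3 of 4 endothelial genes and of 1 of 2 hepatocyte genes, with AUCs of 454 to 2677, while CD3E, TIE1 and ALB had none. Over the 10 epithelial markers the scaled log2 ratio at 72 h ranged from -0.50 to 0.96. Of genes known to be induced by TGFβ, TGFBI was at 0.40, SKIL at 0.13 and SMAD7 at 0.07. These values are given beside those of the tight junction genes, and a relation between them was not tested.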

How the data were processed

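ATAC-seq peak lists of MCF10A cells under solvent or TGFβ1 were used as deposited, 1 per condition. According to the methods and processing notes, the authors used Trimmomatic (0.38) for trimming, Bowtie2 (2.4.5) for mapping to GRCh38, Picard against duplicates, SAMtools (1.4.1) against mitochondrial or poorly mapped reads, and Genrich (0.5) in its ATAC-seq mode for peaks, with both replicates pooled. The deposited signal is Genrich's AUC per peak, made by the authors with a minimum of 200 and without correction for depth, so that deeper libraries give more and larger peaks. Depth per library is unknown, and pooling leaves no spread, p-value or interval except Wilson 95% intervals of shares, which cover counting error only.

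Peaks sharing 1 base were joined, AUCs summed per list, and log2 ratios to solvent reduced by their median over proximal regions. Scaling and calls were checked on simulated lists. These kept the solvent peaks and their boundaries, apart from set losses, so that differences between lists in peak number and width were not covered. Own-promoter regions were chosen by the same rule in all protein-coding genes, on the solvent AUC. Named regions are the 9 own-promoter regions, the 8 largest distal increases, decreases and gains at 72 h, all distal losses, and a region near another gene's TSS where it held the extreme of its window. Members and gene lists were chosen with earlier results of these data known. Alternatives were 3 other scalings, an AUC minimum of 400, lists of equal length, AUC per covered base, the largest peak, other windows, TSS distances and overlaps. Columns of significance in the peak lists were not used. A few marker genes and 1 named distal region of TJP1 are not reported here. Python 3.11.15, pandas 2.3.3, numpy 2.4.6 and statsmodels 0.14.6 were used. RefSeq promoter sequences equalled the GRCh38 genome in 34961 of 34961 entries.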

Additional observations from a re-analysis of the deposited data

How the results depend on the processing

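No paired analysis was possible because the 2 libraries of each condition had been pooled before peaks were called, so that no list carries a replicate number. For the same reason no replicate was left out. A log2 value was taken as unmoved within 0.1 and a count within 1.5 times. Under that rule, 173 of the main values under the alternatives were unmoved and 82 moved. Changes of sign were counted only for values past 1.5-fold. None was found, but of the medians and window sums only the sum of TJP1 was that large. The count is therefore no result about direction. Smaller values did change sign, among them some own-promoter medians and the sums of CLDN7 and MARVELD2 without scaling. The sums of F11R, OCLN and CLDN4 did so with scaling by the median over all shared regions. The cause of each movement was not tested, except that fewer peaks enter under the stricter lists and fewer or more regions under other windows.

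Without scaling, the own-promoter medians at 6, 24 and 72 h were 0.28, 0.19 and -0.059, with 1 gene lower at 72 h. At that time 0.627% of all protein-coding genes were lower. The distal medians were 0.55, 0.63 and 0.56, with 42, 46 and 42 regions higher, and 0 lower at 6 h. The shares higher were 47.2%, 52.9% and 47.7%, against 47.4%, 51.8% and 44.7% of all distal regions. Of all distal regions 0.214% were lower at 6 h. The window sums at 72 h were 0.52 for CGN, 0.30 for F11R, 0.48 for CLDN1, 0.042 for MARVELD2, 0.27 for OCLN, 0.31 for CLDN4, 0.61 for PARD3, 0.87 for TJP1 and 0.067 for CLDN7. With scaling by the median over all shared regions, the own-promoter medians were -0.31 at 24 h and -0.45 at 72 h, with 2 and 4 genes lower. Of all protein-coding genes 1.62% and 2.71% were lower. The distal medians were 0.13 and 0.17 at 24 and 72 h, with 12 and 15 regions higher and 2 lower at either time. The shares higher were 13.8% and 17.0%, against 19.9% and 22.7% of all distal regions. Those lower were 2.30% and 2.27%, against 5.23% and 6.02%. The sums were 0.12 for CGN, -0.091 for F11R, 0.092 for CLDN1, -0.35 for MARVELD2, -0.12 for OCLN, -0.087 for CLDN4, 0.21 for PARD3, 0.47 for TJP1 and -0.33 for CLDN7. With scaling within 20 strata of the mean log2 AUC, where regions without a solvent peak took the median shift of all shared regions, the own-promoter median at 24 h was -0.076. The distal medians were -0.012, 0.062 and 0.11, with 0, 4 and 6 regions lower and 9 and 12 higher at 24 and 72 h. Of all distal regions 3.28%, 7.35% and 8.34% were lower at 6, 24 and 72 h. The shares higher at 24 and 72 h were 10.3% and 13.6%, against 15.4% and 18.6% of all distal regions. The sums were 0.12 for CLDN1, -0.14 for OCLN, 0.18 for PARD3 and 0.50 for TJP1.

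With the AUC per covered base of the same regions, 2 own-promoter regions were lower at 24 h and 1 at 72 h. Of all protein-coding genes 1.57% and 1.61% were lower at these times. The distal medians at 24 and 72 h were 0.12 and 0.17, with 5, 8 and 6 regions higher and 9, 5 and 1 lower at 6, 24 and 72 h. The shares higher were 5.62%, 9.20% and 6.82%, against 6.76%, 13.2% and 14.9% of all distal regions. Those lower were 10.1%, 5.75% and 1.14%, against 4.87%, 4.15% and 4.17%. With the largest single peak, 1 own-promoter region was lower at 6 h, against 0.544% of all protein-coding genes. With peaks of an AUC of at least 400, 19 regions were gained (13.6%) and 0 lost at 6 h, and 0 distal regions were lower. Over all regions 25.4% were gained and 0.345% lost, and 0.789% of all distal regions were lower. With lists of equal length, 9, 11 and 16 regions were gained and 5, 11 and 12 lost, and 0 distal regions were lower at 6 h. The gained shares were 5.96%, 7.19% and 10.1%, against 8.69%, 11.9% and 13.8% of all regions. The lost shares were 3.31%, 7.19% and 7.59%, against 5.44%, 9.47% and 11.6%. Of all distal regions 0.827% were lower at 6 h. With proximal regions limited to 1 kb, 0 distal regions were lower at 6 h and 1 at 24 h, against 1.44% and 3.26% of all distal regions. With protein-coding TSSs alone 1 was lower at 24 h, against 3.17%. In windows of 10 kb, 22 and 20 regions were gained at 24 and 72 h and 2 lost at 24 h. The gained shares were 17.7% and 16.4%, against 29.8% and 29.3% of all regions, and the lost share 1.61%, against 1.31%. In windows of 100 kb, 2, 3 and 3 distal regions were lower at 6, 24 and 72 h. The shares lower were 1.74%, 2.65% and 2.65%, against 1.55%, 3.46% and 4% of all distal regions. Joining peaks at 50% of the shorter one moved none of these values of the 9 genes.

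Over the 10 alternatives for its own-promoter region, CLDN7 ranged from -2.30 to -0.74 at 72 h and was lower by 1.5-fold or more in all 10, and OCLN ranged from -0.90 to -0.40 and was lower in 8. The depth of each library is unknown here, and weak regions near the minimum AUC of 200 can enter or leave a list by small differences in signal.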
